A study of Mus musculus with 4 samples.

Results

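Neutrophil granule genes were followed by the stage at which the developing cell makes them, in RNA from LSK cells of the mouse fetal liver. The 10 genes were taken by name from the 39186 genes of the deposited table. *Mpo*, *Elane*, *Prtn3* and *Ctsg* form the primary granule set of 4 genes, and *Ltf*, *Camp*, *Ngp*, *S100a8*, *S100a9* and *Lcn2* form the later set of 6 genes. All 10 passed the filter on low values, a mean of at least 1 normalized read. The genes were chosen with their values in these 4 samples known, so their levels and differences between genotypes are given as a description. No p is given for a member, and where members called by a fit are counted, the share called of all genes stands beside the count and nothing is read from it.

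The samples were 2 *Pich*-KO and 2 *Pich*-WT libraries from C57BL/6 embryos. *Pich* (*Ercc6l*), an X-linked gene, encodes a DNA translocase of mitotic chromatin bridges, and the knockout carries a small germline deletion in its second exon in every cell of the embryo. LSK cells lack the lineage antigens of mature T, B, myeloid and erythroid cells and carry Sca-1 and c-Kit. They were sorted from fetal livers, which the study took at mid-gestation, and hold the blood stem cells and multipotent progenitors. The labels do not say whether a sample is 1 embryo or a pool, so the spread between samples may be technical in part.

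A neutrophil fills its granules in waves as it matures. The promyelocyte makes the primary (azurophil) granules, which hold myeloperoxidase and serine proteases, and this program begins in progenitors that still divide. Myelocytes and later cells then make the secondary and tertiary granules with lactoferrin and the cathelicidin precursor, and fill the cytosol with the S100A8-S100A9 complex. C/EBP factors, PU.1, GFI1, RUNX1 and MYB are known regulators of these waves.

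The promoters of 6 members are shown because the sets moved apart in these libraries, the first 3 from the primary set and the next 3 from the later set. Each is the 250 bases before the RefSeq transcription start on GRCm38.p6, printed 5′ to 3′ on the strand of the gene. Capitals mark matches on either strand to TTNCNNAA, the core letters of a C/EBP site, or to GAGGAA, the core letters of a PU.1 site.
Mpo (chr11:87793534-87793783, plus strand): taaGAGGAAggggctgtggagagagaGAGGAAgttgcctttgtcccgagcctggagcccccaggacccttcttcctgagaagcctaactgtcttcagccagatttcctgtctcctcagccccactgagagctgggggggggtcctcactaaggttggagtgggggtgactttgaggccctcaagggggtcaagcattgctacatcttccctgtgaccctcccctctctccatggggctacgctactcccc
Elane (chr10:79886062-79886311, plus strand): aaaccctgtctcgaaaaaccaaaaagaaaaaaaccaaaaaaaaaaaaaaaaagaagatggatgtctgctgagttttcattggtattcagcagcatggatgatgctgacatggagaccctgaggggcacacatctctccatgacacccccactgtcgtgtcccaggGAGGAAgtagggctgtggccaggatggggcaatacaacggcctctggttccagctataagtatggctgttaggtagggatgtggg
Prtn3 (chr10:79879417-79879666, plus strand): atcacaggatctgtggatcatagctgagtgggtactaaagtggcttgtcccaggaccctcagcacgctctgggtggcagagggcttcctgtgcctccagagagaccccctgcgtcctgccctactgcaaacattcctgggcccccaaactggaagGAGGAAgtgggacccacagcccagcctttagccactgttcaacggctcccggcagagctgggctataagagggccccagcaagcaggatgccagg
Ltf (chr9:111019042-111019291, plus strand): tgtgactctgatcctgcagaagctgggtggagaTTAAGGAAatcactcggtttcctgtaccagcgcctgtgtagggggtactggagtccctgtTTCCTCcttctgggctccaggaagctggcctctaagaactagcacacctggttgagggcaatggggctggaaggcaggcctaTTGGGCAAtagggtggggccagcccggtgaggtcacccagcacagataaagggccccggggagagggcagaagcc
Ngp (chr9:110419558-110419807, plus strand): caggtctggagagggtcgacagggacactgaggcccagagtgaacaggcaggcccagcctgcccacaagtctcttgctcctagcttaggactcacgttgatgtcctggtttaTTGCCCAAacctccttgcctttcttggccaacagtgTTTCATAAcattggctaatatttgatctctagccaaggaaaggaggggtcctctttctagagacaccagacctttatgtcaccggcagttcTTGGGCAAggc
S100a8 (chr3:90668821-90669070, plus strand): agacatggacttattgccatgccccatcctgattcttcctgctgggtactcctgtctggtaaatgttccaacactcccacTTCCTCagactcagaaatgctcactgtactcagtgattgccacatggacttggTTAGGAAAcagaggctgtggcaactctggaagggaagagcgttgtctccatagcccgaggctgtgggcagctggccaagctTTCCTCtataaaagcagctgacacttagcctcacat

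All 10 members had an entry among the RefSeq promoters, which run on to 50 bases after the start. In these windows TTNCNNAA was found in 0 of 4 primary genes and in 5 of 6 later genes, *Ltf*, *Ngp*, *S100a8*, *S100a9* and *Lcn2*, against 40.7% of all 32851 promoters. GAGGAA was found in 4 of 4 primary genes and in 3 of 6 later genes, *Ltf*, *S100a8* and *Lcn2*, against 28.3% of all promoters. AACGG, the core of a MYB site, was in 2 members, *Elane* and *Prtn3* (17.4% of all promoters), and TGTGGT, the core of a RUNX site, was in 3 members, *Ctsg*, *Ltf* and *S100a9* (16.8%). Both strands were searched, and a match is a description of the sequence only. For every member but *Ctsg* and *S100a9* the RefSeq start lies inside the gene record of the table, so part of the printed or searched bases belongs to that record. For *Prtn3* and *Lcn2* the whole window lies inside the record, which begins at 79874476 for *Prtn3* and ends at 32388252 for *Lcn2* on the minus strand.

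Reads were recovered from the deposited values, which are read counts divided by 1 size factor per sample, and came to between 14703215 and 20933919 reads on genes per library. *Ercc6l* mRNA, which the small deletion leaves countable and which therefore does not check the labels, was at 1142 and 1232 normalized reads in *Pich*-KO and at 772 and 661 in *Pich*-WT. *Pich*-WT sample 2 had 0 reads on 4 Y-linked genes and *Pich*-WT sample 1 had 2753. The medians of the member sets and the ratio of later to primary reads are therefore also given without *Pich*-WT sample 2. Other values are given with all libraries unless stated. *Pich*-KO samples 1 and 2 had 1607 and 2848 reads on the Y-linked genes, so the knockout libraries differed on these genes too. Of the LSK markers, *Kit* was at 4447 and 2773 normalized reads in *Pich*-KO samples 1 and 2 and at 2328 and 2513 in *Pich*-WT samples 1 and 2. *Ly6a*, the Sca-1 gene, was at 3586, 2978, 901 and 1061 in the same order, and *Cd34* was at 11424, 6226, 8901 and 8940. *Flt3* was at 3648, 2478, 4191 and 4481. These genes of the sorted cell type were read in every library, but the 10 LSK markers did not move together. limma called 1 higher in *Pich*-KO, *Ly6a* (1.74), and 4 lower, *Procr* (-2.88), *Hlf* (-2.37), *Mecom* (-2.10) and *Slamf1* (-0.90), genes known from stem cells, with a median log2 fold change of -0.72 over the list. The 10 markers all had less RNA in *Pich*-KO sample 2 than in sample 1, with a summed level of 1115 against 1801 RPM (reads scaled to one common library total). *Ly6g*, the gene of a mature neutrophil antigen that the Gr-1 antibody binds, had at most 3 normalized reads in any library. *Ly6c2*, also listed for the lineage antigens of the sort, was at 1068 and 2891 normalized reads in *Pich*-KO and at 209 and 244 in *Pich*-WT.

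*Mpo* encodes myeloperoxidase, the most abundant enzyme of the primary granule. Its gene (ENSMUSG00000009350) lies on the plus strand of chromosome 11, from 87793581 to 87804413 on GRCm38. It was at 54647 and 90492 normalized reads in *Pich*-KO samples 1 and 2 and at 10351 and 12533 in *Pich*-WT samples 1 and 2. Both *Pich*-KO libraries lay above both *Pich*-WT libraries, and they differed from each other 1.66-fold. The mean was 72570 ± 25346 (SD, n = 2) against 11442 ± 1543 (SD, n = 2), or a log2 fold change of 2.63 with a standard error of 0.20 on the log2(value + 1) scale, which is used for every fold change below.

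*Prtn3* and *Elane* encode proteinase 3 and neutrophil elastase, serine proteases packed with myeloperoxidase. They lie 3.07 kb apart on the plus strand of chromosome 10, *Prtn3* (ENSMUSG00000057729) from 79874476 to 79883174 and *Elane* (ENSMUSG00000020125) from 79886247 to 79888215. *Prtn3* was at 6835 and 15270 normalized reads in *Pich*-KO and at 1468 and 1607 in *Pich*-WT, which gives a log2 fold change of 2.73 (standard error 0.31). Its groups did not overlap either. *Elane* was at 730 and 3387 normalized reads in *Pich*-KO and at 722 and 979 in *Pich*-WT, which gives a log2 fold change of 0.90 (standard error 0.58). *Pich*-KO sample 1 lay between the *Pich*-WT libraries and sample 2 far above them, so *Elane* was the primary gene whose groups overlapped although its neighbour *Prtn3* was high in both knockout libraries.

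*Ctsg* encodes cathepsin G, a further serine protease of the granule, and lies on the minus strand of chromosome 14, from 56099881 to 56102574 (ENSMUSG00000040314). It was at 922 and 3418 normalized reads in *Pich*-KO and at 237 and 335 in *Pich*-WT. All 4 libraries kept the order of the genotypes, with a 3.71-fold gap inside the knockout group. The log2 fold change was 2.65 (standard error 0.51).

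Over the 4 primary genes the median log2 fold change was 2.64, against 0.02 over all 32428 genes tested. It was 3.15 without *Pich*-KO sample 1, 1.93 without *Pich*-KO sample 2 and 2.78 without *Pich*-WT sample 2. With limma and Benjamini-Hochberg adjustment at 0.05, 3 of the 4 were called higher in *Pich*-KO, where 7.58% of all genes tested were called higher. As these genes were chosen on this contrast, nothing is read from that count. The groups did not overlap for 3 of the 4, with both *Pich*-KO libraries above both *Pich*-WT libraries, as for 28.9% of all genes tested and 41.7% of those whose mean was 100 or more. In bulk samples, a change in the number of cells of a type and a change in RNA per cell cannot be told apart.

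**Figure D1:**
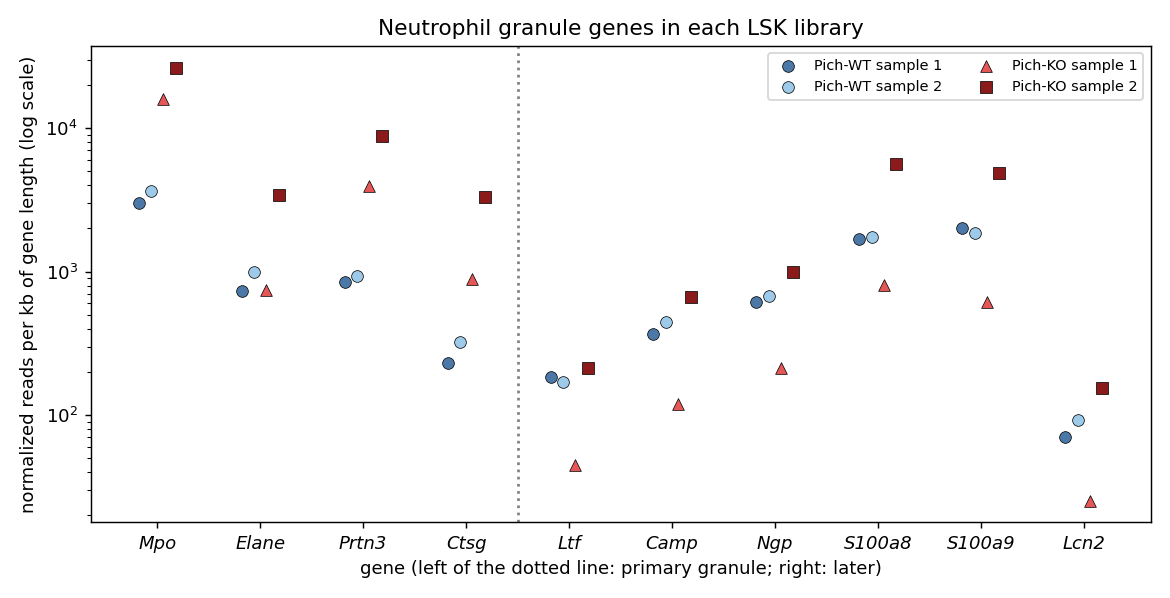
Normalized reads per kb of gene length (log axis) for the 10 granule genes, with 1 point per library. *Mpo*, *Prtn3* and *Ctsg* had both *Pich*-KO libraries (triangles and squares) above both *Pich*-WT libraries (circles), while each of the 6 later genes had *Pich*-KO sample 1 below and sample 2 above the *Pich*-WT pair.

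The later genes had another order of the libraries. *Ltf* encodes lactoferrin, the iron-binding protein of the secondary granule (ENSMUSG00000032496, chromosome 9, plus strand, 111019271 to 111042767). It was at 154 and 739 normalized reads in *Pich*-KO samples 1 and 2 and at 639 and 588 in *Pich*-WT samples 1 and 2. The *Pich*-KO samples thus lay on either side of the *Pich*-WT pair, sample 1 at 0.251 times and sample 2 at 1.20 times the *Pich*-WT mean.

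*Camp* encodes the precursor of the antimicrobial cathelicidin peptide (ENSMUSG00000038357, chromosome 9, minus strand, 109847379 to 109849617), and *Ngp* encodes neutrophilic granule protein, a cystatin-like relative (ENSMUSG00000032484, chromosome 9, plus strand, 110419747 to 110423012). *Camp* was at 90.5 and 504 normalized reads in *Pich*-KO and at 280 and 339 in *Pich*-WT. *Ngp* was at 260 and 1220 in *Pich*-KO and at 755 and 826 in *Pich*-WT. Sample 1 was again the lowest library and sample 2 the highest for both genes. The ratio of *Camp* to *Ngp* reads stayed between 0.349 and 0.413 in the 4 libraries. *Camp*, *Ngp* and *Ltf* share 1 stretch of chromosome 9, with gaps of 0.570 Mb and 0.596 Mb.

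*S100a8* and *S100a9* encode the calcium-binding partners that form calprotectin, a cytosolic rather than a granule protein. They lie 22.6 kb apart on chromosome 3, *S100a8* (ENSMUSG00000056054) from 90668978 to 90670035 on the plus strand and *S100a9* (ENSMUSG00000056071) from 90692632 to 90695721 on the minus strand. *S100a8* was at 556 and 3918 normalized reads in *Pich*-KO and at 1173 and 1215 in *Pich*-WT. *S100a9* was at 318 and 2553 in *Pich*-KO and at 1058 and 967 in *Pich*-WT. These partners had the widest gaps between the knockout libraries among the members, 7.04-fold and 8.02-fold, while their *Pich*-WT libraries differed by 1.04-fold and 0.914-fold.

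*Lcn2* encodes lipocalin 2, which binds bacterial siderophores, and lies on the minus strand of chromosome 2, from 32384633 to 32388252 (ENSMUSG00000026822). It was at 66.5 and 402 normalized reads in *Pich*-KO and at 185 and 243 in *Pich*-WT. The lowest library held 61 reads, with an exact Poisson 95% interval of 46.7 to 78.4 that covers counting error only. The knockout libraries differed 6.05-fold, well beyond that counting error.

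The mean log2 fold changes of the later genes ran from -0.86 for *Ltf* to 0.31 for *S100a8*, with standard errors of 0.58 to 0.77 and a median of -0.43. With *Pich*-KO sample 1 left out the median was 0.81 and 6 of 6 values were positive, and with sample 2 left out it was -1.66 and 0 of 6 were positive. Without *Pich*-WT sample 2 it was -0.31. On the recovered reads, edgeR with TMM scaling gave a median of 0.06 with 3 of 6 positive, and *S100a9* and *Lcn2* then had values of 0.53 and 0.16 in place of -0.16 and -0.37. limma called 0 of the 6 in either direction, where it called 7.58% of all genes tested higher and 9.6% lower. As with the primary set, nothing is read from that count. With all libraries edgeR called 0 of the 6, where it called 18.6% higher and 20.7% lower of the 16608 genes that passed its own filter. DESeq2 called 0 of them, with 16.7% and 20.3% of the 15635 genes that it gave an adjusted p. These shares are over fewer genes than the 32428 of limma. The *Pich*-KO mean of each later gene lay between libraries on opposite sides of the *Pich*-WT pair.

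**Figure D2:**
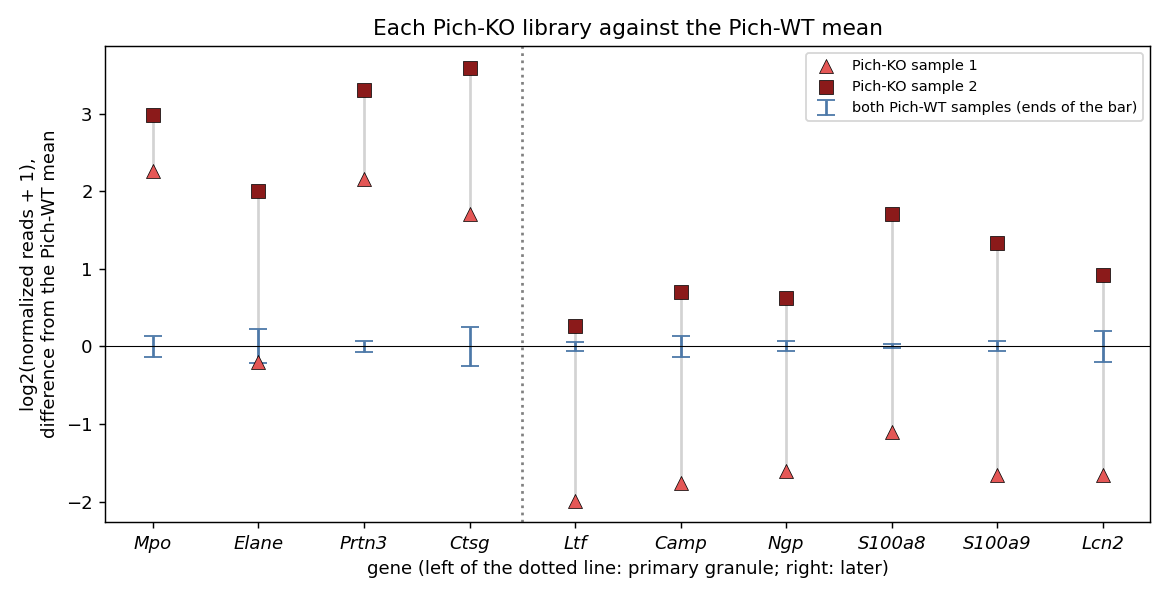
Difference of each *Pich*-KO library from the *Pich*-WT mean on the log2(normalized reads + 1) scale, with the *Pich*-WT libraries at the ends of the blue bars. Sample 1 ran from -1.99 for *Ltf* to 2.26 for *Mpo*, and sample 2 from 0.27 for *Ltf* to 3.60 for *Ctsg*, with sample 2 the higher for each gene.

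In each of the 10 members *Pich*-KO sample 2 exceeded sample 1, where 50.4% of all genes tested were. The ratio of sample 2 to sample 1 ran from 1.66 to 4.64 in the primary set and from 4.70 to 8.02 in the later set, and the *Pich*-WT libraries differed by 0.914-fold to 1.41-fold over the members. The order inside the sets followed no single stage line, since *Elane* (4.64) and *Ctsg* (3.71) lay nearer to the later genes than *Mpo* (1.66) and *Prtn3* (2.23) did. Of all genes tested, 17.2% had a larger ratio than *Mpo*, 2.01% a larger one than *Elane*, and 0.311% a larger one than *S100a9*. All 6 later genes had sample 1 below and sample 2 above both *Pich*-WT libraries, which held for 4.56% of all genes tested and 2.77% of those whose mean was 100 or more. Of 10544 genes with a mean of at least 100, 23 (0.218%) were at least 4 times higher in sample 2 than in sample 1, and 7 of the 23 were members, the 6 later genes and *Elane*.

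The share of the transcriptome given to the sets moved with these levels. The primary genes took 0.381% and 0.674% of the reads in the *Pich*-KO libraries (samples 1 and 2), beside 0.0781% and 0.0993% for *Pich*-WT. The later genes took 87.2 and 559 RPM in *Pich*-KO, beside 250 and 268 RPM for *Pich*-WT. *Pich*-KO sample 1 thus had more primary and fewer later reads than either *Pich*-WT library, and sample 2 had more of both.

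Later reads came to 2.29% and 8.29% of primary reads in *Pich*-KO and to 32.0% and 27.0% in *Pich*-WT. On this ratio, which cancels the scaling of a library, both knockout libraries lay below both *Pich*-WT libraries, by 2.76 on the log2 scale between the group means. The difference was -1.83 without *Pich*-KO sample 1, -3.68 without *Pich*-KO sample 2 and -2.88 without *Pich*-WT sample 2. Leaving *Mpo* out of the primary sum kept the order, at 0.170 and 0.423 later reads per primary read in *Pich*-KO, beside 1.69 and 1.43 in *Pich*-WT. Within the primary set, *Elane* had 0.792 and 0.991 reads per *Ctsg* read in *Pich*-KO, beside 3.05 and 2.92 in *Pich*-WT, and 0.107 and 0.222 per *Prtn3* read against 0.492 and 0.609. *Elane* was thus the smaller part beside either protease in *Pich*-KO, and it came to 1.34% and 3.74% of *Mpo* reads against 6.98% and 7.81%. The other proteases overlapped between the genotypes on this scale. *Prtn3* came to 12.5% and 16.9% of *Mpo* reads in *Pich*-KO against 14.2% and 12.8%, and *Ctsg* to 1.69% and 3.78% against 2.29% and 2.67%. Within the later set, *S100a8* had 1.75 and 1.53 reads per *S100a9* read in *Pich*-KO against 1.11 and 1.26.

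**Figure D3:**
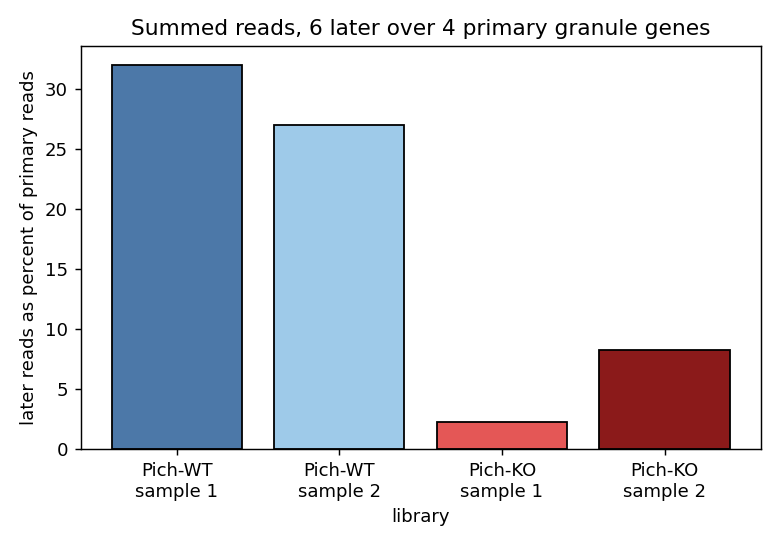
Summed reads of the 6 later genes as a percent of the summed reads of the 4 primary genes, with 1 bar per library. The *Pich*-WT libraries were at 32.0% and 27.0%, and the *Pich*-KO libraries at 2.29% and 8.29%.

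Levels between genes were compared per kb of gene length. In *Pich*-WT the order was *Mpo* (3342 ± 451 normalized reads per kb, SD, n = 2), *S100a9* (1940 ± 123), *S100a8* (1721 ± 42.8), *Prtn3* (888 ± 56.9), *Elane* (864 ± 185), *Ngp* (647 ± 41.1), *Camp* (408 ± 55.2), *Ctsg* (277 ± 67.2), *Ltf* (178 ± 10.5) and *Lcn2* (81.6 ± 15.6). The neighbours *Prtn3* and *Elane* differed by less than their spread. In *Pich*-KO *Mpo* (21194 ± 7403) was followed by *Prtn3* (6381 ± 3443), *S100a8* (3224 ± 3426), *S100a9* (2751 ± 3027), *Ctsg* (2101 ± 1709) and *Elane* (2092 ± 1910). The means of the last 4 differed by less than their spread, which holds the gap between samples 1 and 2 that each gene shared. Within samples 1 and 2, *S100a8* (802 and 5646) exceeded *S100a9* (610 and 4891) and *Elane* (742 and 3443). The other pairs among the last 4 changed order between the samples. *Ngp* (605 ± 556), *Camp* (392 ± 385), *Ltf* (129 ± 120) and *Lcn2* (89.4 ± 90.5) closed the order, with spreads near their means. *Ctsg* stood above *Ngp* and *Camp* and *Prtn3* above *S100a8* and *S100a9* in *Pich*-KO, and below them in *Pich*-WT.

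Other genes of the primary stage, 9 of them, did not all follow the 4 members. limma called 2 higher and 1 lower, and the median log2 fold change was 0.07, where over all genes tested 7.58% were called higher and 9.6% lower with a median of 0.02. *Cst7*, which encodes cystatin F, an inhibitor of the activator of the granule proteases, rose by 2.04 (standard error 0.20, adjusted p = 0.000447), from 167 and 155 normalized reads in *Pich*-WT to 566 and 778 in *Pich*-KO. *Serpinb1a*, an inhibitor of elastase, cathepsin G and proteinase 3, rose by 1.48 (standard error 0.13, adjusted p = 0.000279), and *Cd63*, a membrane protein of primary granules and lysosomes, fell by 0.97 (standard error 0.12, adjusted p = 0.0011). The groups of each of these genes were apart by more than the spread inside them. *Ctsc*, the protease that activates the granule serine proteases, had a log2 fold change of -0.18 (limma adjusted p = 0.146), and *Srgn*, the proteoglycan that packs them, one of 0.07 (limma adjusted p = 0.68). *Prss57*, a further primary granule protease, was at 169 and 402 normalized reads in *Pich*-KO against 99.3 and 148, with a log2 fold change of 1.10 (limma adjusted p = 0.11). *Ms4a3*, a surface gene of granulocyte-monocyte progenitors, was at 201 and 1237 normalized reads in *Pich*-KO, beside 175 and 232 in *Pich*-WT, an order of libraries like that of *Elane*.

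Of 21 other later-stage genes, limma called 1 higher and 4 lower, with a median log2 fold change of -0.68. *Hp*, haptoglobin, rose by 1.83 (standard error 0.43, adjusted p = 0.0217). The genes that fell were *Mmp9*, gelatinase B of the tertiary granule (-3.71, standard error 0.80, adjusted p = 0.0156), *Lyz2*, lysozyme (-1.74, standard error 0.09, adjusted p = 2.94e-05), *Itgam*, the CD11b integrin chain (-1.28, standard error 0.28, adjusted p = 0.016), and *Cyba*, a subunit of the NADPH oxidase (-0.66, standard error 0.09, adjusted p = 0.00162). Of the 21, 18 had a larger value in the second *Pich*-KO library than in the first, 12 of them at least 2-fold, and 7 had sample 1 below and sample 2 above both *Pich*-WT libraries, as all 6 later members did. *Mmp9* was at 4.36 and 39.8 normalized reads in *Pich*-KO and at 170 and 219 in *Pich*-WT, so it shared the gap between the knockout libraries but stayed below *Pich*-WT in both. *Lyz2*, *Itgam* and *Cyba* are also expressed by macrophages, and the 15 macrophage markers were all called lower in *Pich*-KO, with a summed level of 552 and 474 RPM against 4441 and 5032. *Slc40a1*, *Csf1r* and *C1qb*, the macrophage markers with the highest means, had log2 fold changes of -4.85, -1.33 and -4.69. The part of macrophage RNA in the falls of *Lyz2*, *Itgam* and *Cyba* was not tested. With *Pich*-KO sample 2 left out, edgeR called 13 of the 21 lower, and with sample 1 left out it called 5 higher and 5 lower, where the lone knockout library is assumed to vary like the *Pich*-WT pair.

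Among 13 surface genes of mature neutrophils, limma called 1 higher and 4 lower (median log2 fold change -0.34). *Cxcr4*, the chemokine receptor that holds neutrophils and stem cells in the marrow, rose by 3.65 (standard error 0.42, adjusted p = 0.000877), from 14.8 and 8 normalized reads in *Pich*-WT to 117 and 191 in *Pich*-KO. *Fpr1* (-3.39) and *Fpr2* (-1.52), the formyl peptide receptors, *Mmp25* (-3.06), a membrane-bound protease, and *Itgb2* (-0.77), the shared beta chain of the leukocyte integrins, fell, with limma adjusted p from 0.00194 to 0.045. *Csf3r*, the G-CSF receptor, had a log2 fold change of 0.08 with a limma adjusted p of 0.762, and its 4 libraries ran from 1454 to 1724 normalized reads. The median of log2 differences between the knockout libraries was 0.03 over this list, against 2.52 over the later members and 1.52 over the primary members.

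Of 11 transcription factors of the granulocyte line, limma called 2 higher and 5 lower. *Runx1* rose by 1.46 (standard error 0.15, adjusted p = 0.000589) and *Myb*, a factor of dividing progenitors, by 0.57 (standard error 0.13, adjusted p = 0.0162). *Cebpa*, which starts the granulocyte program, fell by 1.33 (standard error 0.13, adjusted p = 0.000474), from 1138 and 1122 normalized reads in *Pich*-WT to 462 and 438 in *Pich*-KO. *Gfi1* (-1.13), *Cebpb* (-3.31), *Klf4* (-1.18) and *Cbfb* (-0.83) also fell, with limma adjusted p from 0.00239 to 0.0063. *Cebpe*, the factor needed for secondary granules, was at 113 and 356 normalized reads in *Pich*-KO and at 76.6 and 154 in *Pich*-WT (log2 fold change 0.88, limma adjusted p = 0.334). Its second *Pich*-KO library exceeded the first 3.14-fold, while *Spi1*, the PU.1 gene, was level, at 5918 to 6775 normalized reads in the 4 libraries. Over the 11 factors 3 were higher in the second knockout library than in the first.

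**Figure D4:**
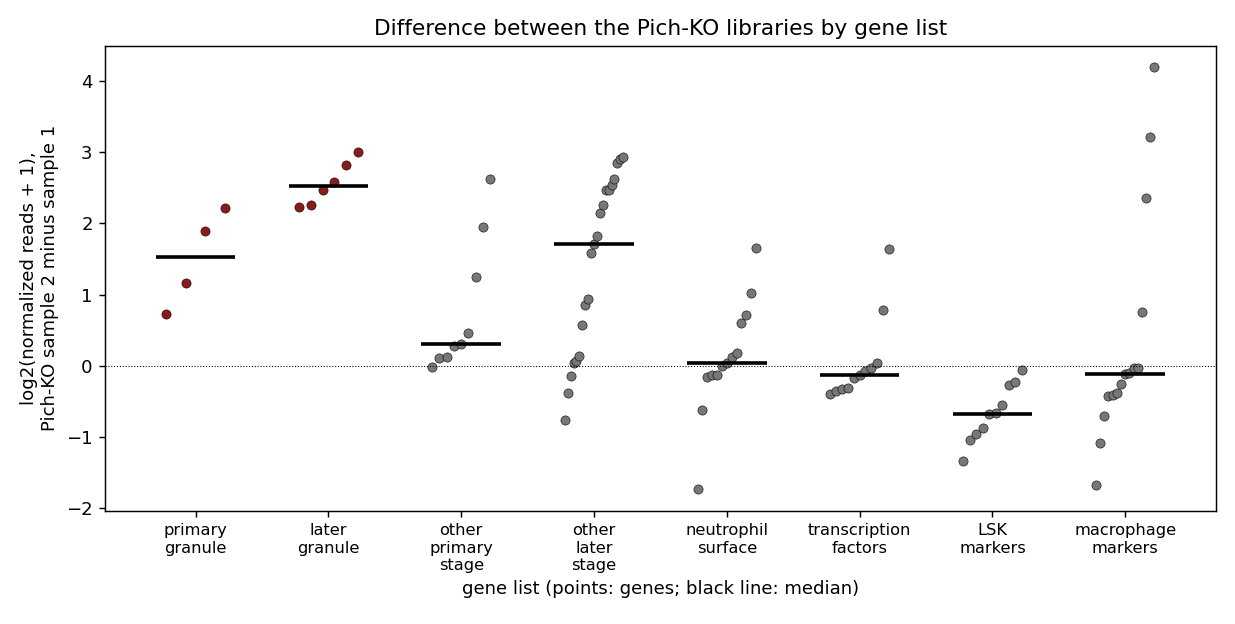
Difference between the *Pich*-KO libraries, sample 2 minus sample 1 on the log2(normalized reads + 1) scale, for each gene of 8 lists, with the median as a black line. All 10 granule genes lay above 0 and all 10 LSK markers below 0, and the medians were 1.52 for the primary set, 2.52 for the later set and 1.71 for the other later-stage genes.

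Markers of other granulocytes and blood cells were read beside the members. Summed markers of mast cells and basophils were at 34.5 and 48.6 RPM in *Pich*-KO and at 11.2 and 9.25 in *Pich*-WT, and 2 of 7 were called higher, *Cpa3* (2.03) and *Ms4a2* (2.18). The basophil proteases *Mcpt8* and *Prss34* were at 94.3 and 172 normalized reads in *Pich*-KO sample 2 and at most at 17 in any other library. Eosinophil markers were at 119 and 89.3 RPM in *Pich*-KO and at 32.0 and 198 in *Pich*-WT, with *Prg2*, *Epx* and *Siglecf* leading, and did not follow the members. Of 5 monocyte markers 1 was called higher, *Ly6c2* (2.96), which was at 1068 and 2891 normalized reads in *Pich*-KO and at 209 and 244 in *Pich*-WT, and 2 lower, *Ccr2* (-1.54) and *Cx3cr1* (-2.18), while *F13a1* had a value of -0.17. Of 7 lymphocyte markers limma called 2 lower, *Ncr1* (-2.13) and *Klrb1c* (-2.47). *Cd79b* (0.01) and *Cd79a* (-0.22) had the highest means of those shown. *Cd79a* was at 119 and 355 normalized reads in *Pich*-KO and at 313 and 183 in *Pich*-WT, and *Cd79b* at 976 and 1210 against 1093 and 1061. Both were among 3 of the 7 with *Pich*-KO sample 1 below and sample 2 above both *Pich*-WT libraries, like the later members (4.56% of all genes tested). The summed level over the list was 72.1 and 113 RPM in *Pich*-KO and 106 and 102 RPM in *Pich*-WT. Genes listed for the lineage gate, with *Ptprc* (0.15), *Ly6c2* and *Cd4* (-2.50) leading, summed to 376, 434, 296 and 290 RPM. *Ptprc*, listed for the B220 antigen, made up most of the sum in every library, at 4020 to 5075 normalized reads. Its reads were counted over the whole gene, which cannot separate B220 from other products of *Ptprc*. The sum is therefore not a measure of the antigens stained for the gate. Erythroblast markers (9 of 9 lower) and hepatoblast markers (7 of 10 lower) were at 1918 and 2027 and at 197 and 163 RPM in *Pich*-KO, against 12000 and 8877 and 326 and 307 in *Pich*-WT. The globin genes *Hba-a1* (-2.29), *Hbb-bt* (-2.57) and *Hbb-bs* (-3.17), whose like copies may share reads, led the erythroblast list, and *Afp* (-0.52, limma adjusted p = 0.0795), *Alb* (-0.83) and *Apoa1* (-1.20) the hepatoblast list. The part of other cells in the difference between the knockout libraries was not tested. Their part in the differences of the members and of the ratio of later to primary reads between the genotypes was not tested either.

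The genes next to the members were measured to see whether whole neighbourhoods moved. Of 33 tested protein-coding genes, the nearest 2 on each side, limma called 3 higher, 3 lower and 27 neither way, shares close to the 7.58% called higher and 9.6% called lower of all genes tested. *Plppr3*, which overlaps the *Prtn3* record, rose by 1.66 (standard error 0.16, adjusted p = 0.000372), from 1465 and 1470 normalized reads in *Pich*-WT to 3889 and 5523 in *Pich*-KO, and whether strand was used in counting is not given in the sources used here, so reads of the pair could be shared. *Tspoap1*, 7.65 kb from *Mpo*, rose by 1.64 (standard error 0.30, adjusted p = 0.0076), and *Ptbp1*, a splicing regulator beside *Plppr3*, by 0.38 (standard error 0.07, adjusted p = 0.00686). *Lpo*, the lactoperoxidase gene 2.02 kb beyond *Mpo*, stayed at 0 to 10 normalized reads. On the later side *Ccrl2* (-1.93) and *Lrrc2* (-2.36) by *Ltf* and *S100a6* (-1.42) by *S100a8* fell, with limma adjusted p from 0.000293 to 0.0108. Of the 33 neighbours 1, *Mcpt8* by *Ctsg*, had *Pich*-KO sample 1 below and sample 2 above both *Pich*-WT libraries.

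The genes most like the members were found by the root mean square difference of centred log2 values over the 4 libraries, among 10534 other genes with a mean of at least 100. Nearest to the mean primary profile were *Hspa1a* (0.204), *Neat1* (0.271), *Hp* (0.284), *Gm37352* (0.292) and *Gm28437* (0.298), where the 4 members themselves lay at 0.259 to 0.711. Nearest to the later profile were *Stfa1* (0.107), *BC100530* (0.156), *Gm5483* (0.180) and *Fcnb* (0.261), where the 6 members lay at 0.103 to 0.341. *Stfa1*, *BC100530* and *Gm5483* belong to the stefin A cluster of cysteine protease inhibitors, whose near-identical copies may share reads. *Stfa1* was at 259 and 1430 normalized reads in *Pich*-KO and at 649 and 699 in *Pich*-WT. The likeness rests on 4 libraries and is a description.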

How the data were processed

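RNA of sorted LSK cells was made into libraries with an Illumina TruSeq kit, 2 of *Pich*-KO and 2 of *Pich*-WT. Per the labels, submitters' processing notes name Bowtie 0.12.2, mm8 and mm9. Yet 97.8% of 39163 genes found in GENCODE M21 had its GRCm38 start and end. The authors deposited 1 table, whose sample values are a signal, reads on genes divided by a size factor. Its log2 fold change and p-value columns, deposited by the authors, hold the authors' own comparison and were not used. Whole reads were recovered for 100% of values (tolerance 0.01 of 1 read), giving 14703215 to 20933919 reads per sample.

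limma 3.58.1 (R 4.3.3) with a variance trend was fitted to log2(value + 1) of the 32428 genes whose mean was 1 or more, under Benjamini-Hochberg adjustment at 0.05. The test was checked on simulated data with the same dispersion for every gene and both groups. That check does not cover genes whose *Pich*-KO libraries differ far more than the *Pich*-WT pair. An exact permutation test of 2 against 2 cannot go below p = 0.333. Alternatives were edgeR 4.0.16 and DESeq2 1.42.0 on recovered reads, other pseudocounts and filters, no variance trend, a replicate block and leaving out each sample. Leaving out samples in edgeR was added after seeing the data.

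Members and lists were chosen with earlier results of these data known. Named are the members, regulators and partners, up to 4 called genes per direction in each neutrophil list, the neighbours, the 5 genes most like each set and the 3 marker genes of highest mean per list. *Ms4a3*, *Cbfb*, *Ly6a*, *Procr*, *Hlf*, *Mecom*, *Slamf1*, *Ncr1*, *Klrb1c*, *Marco*, *Clec4f*, *Cd5l*, *Gapdh* and *Eif2s3y* were named after their values were seen. *Mcpt4* and *Ahsp* were not analysed here, and 1 gene that these rules name is not reported here.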

Additional observations from a re-analysis of the deposited data

How the results depend on the processing

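The median log2 fold change of the later members, given as a description, was -0.43 in limma, 0.06 in edgeR and 0.04 in DESeq2. limma without the variance trend called 0 genes higher and 0 lower in the whole table, against 2459 and 3113, and 0 in each of the sets (members, neighbours and other neutrophil lists), with 7377 genes at an unadjusted p under 0.05 against 9294. Leaving out 1 sample in limma, with the lone sample assumed to vary like the other group, left 0 to 0 genes called higher or lower in the table and in each set, with 5757 to 8599 genes at an unadjusted p under 0.05. In edgeR without 1 sample, under the same assumption, the median log2 fold change of the later members changed sign with the library left out. This median was 0.84 without *Pich*-KO sample 1 and -1.64 without *Pich*-KO sample 2. Without *Pich*-WT sample 1 it was -0.09, and without *Pich*-WT sample 2 it was 0.25. For the primary members edgeR without 1 sample gave medians of 1.96 to 3.18. It called 2 to 6 neighbours higher, 2 to 5 other primary-stage genes higher and 1 to 3 lower, 1 to 5 other later-stage genes higher and 4 to 13 lower, 1 to 3 surface genes higher, and 1 to 3 transcription factors higher.

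The labels do not say whether replicate numbers pair the samples. Deviations of same-numbered samples had a correlation of 0.01 over 10544 genes, so they shared no deviation, which does not settle how the samples were collected. A replicate block called 3122 genes higher and 3874 lower, 1 later member lower (*Ltf*), 5 neighbours higher, 4 other primary-stage genes higher and 2 lower, and 3 surface genes higher. edgeR with TMM and with upper-quartile scaling called 5 neighbours and 3 surface genes higher, and DESeq2 2 surface genes. At least 10 reads in every sample gave 2 other primary-stage genes lower, and 2 surface genes higher and 2 lower. No filter gave 0 other later-stage genes higher and 2 lower and left *Ctsg* uncalled, and a pseudocount of 0.1 gave 0 higher. The causes were not tested. The lowest value of any member rests on 61 reads, and n = 2 a group sets the precision.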
